A study of Homo sapiens with 6 samples.

Results

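The AP-1 transcription factor genes FOS, FOSB, FOSL1, FOSL2, JUN, JUNB, JUND and ATF3 were followed in HCT116 cells, a human colorectal carcinoma line, after CRISPR editing of MUC3A, a membrane mucin gene. The 8 genes were taken by symbol, and all 8 were among the 15284 genes listed in both deposited tables. The 3 groups of 2 poly(A) RNA libraries were KO2, cells given the second MUC3A guide RNA, KO1, cells given the first MUC3A guide RNA, and WT, the controls. Guides were delivered with lentiCRISPR v2, a virus that also carries Cas9, at a multiplicity of infection of 10, and infected cells were kept in puromycin at 2 µg/mL for 72 h. WT samples carry the labels wild type and negative control. A scrambled virus appears in the protocol, but the labels leave unsaid whether it was given to WT cells. The labels do not say whether KO1 and KO2 were single clones or pools of edited cells. Separate cultures are not stated for the 2 libraries within a group, and p-values therefore reflect library-to-library spread that may be technical.

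AP-1 is a dimer of basic leucine zipper proteins that binds short DNA elements and relays growth factor and stress signals to transcription. FOS family proteins (FOS, FOSB, FOSL1, FOSL2) need a partner, usually a JUN family protein (JUN, JUNB, JUND), while JUN proteins can also pair among themselves. FOS, FOSB, JUN and JUNB are immediate early genes, FOSL1 and FOSL2 are switched on later and are sustained by the ERK pathway, JUND is made steadily in most cells, and ATF3 is a stress-induced member that pairs with JUN proteins.

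Libraries held 13638724 to 17830282 counts. Each group had 1 library whose name starts with HCT116 and 1 whose name starts with HCT, called the HCT116 and HCT sets here. What the prefix marks is not stated, so levels were compared within a set and the set was a term in the test. MUC3A itself stood at 24.6 and 30.03 CPM (counts per 1000000, scaled by library) in the HCT116 and HCT libraries of KO2, at 28.6 and 52.8 CPM in those of KO1, and at 25.1 and 52.7 CPM in those of WT. Its log2 fold change passed the threshold in neither guide, at −0.43 ± 0.19 in KO2 and 0.08 ± 0.18 in KO1 (SE over 2 libraries a group, edgeR adjusted p = 0.237 and 0.962). Sums over marker lists are in CPM without the scaling by library. The 7 colorectal epithelial markers, of which 6 were tested, summed to 5648 to 14239 CPM, most of it KRT8, KRT18 and KRT19. VIL1, the marker not tested, had 0 to 3 reads per library. The markers of other cells were low: 6 of 8 leukocyte markers were in both tables and summed to 6.45 to 22.8 CPM (PTPRC had 0 or 1 read), and 4 of 9 fibroblast markers summed to 33.5 to 72.3, nearly all of it COL1A1, while DCN had 0 reads in 5 of 6 libraries. Transcripts of the mitochondrial genome made up 6.95% and 8.90% of counts in the HCT116 and HCT libraries of KO2, against 4.84% and 5.34% in WT, and 4.20% and 5.94% in KO1. Leaving these 13 genes out changed no member's call but that of ATF3 in KO2, given below.

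The start regions of the members themselves can carry AP-1 elements or CRE-like elements, both given below. JUN and ATF3 are shown at most length because both hold TGACATCA, and a link of these letters to transcript levels was not tested. RefSeq start regions (GRCh38.p14, 250 bases before to 50 after an annotated start) matched 7 of the 8 members, with 2 starts for ATF3. They were searched on both strands for the AP-1 element TGANTCA and for the CRE-like element TGACNTCA, and no stretch matched both. JUN and the first ATF3 start each held TGACATCA, JUND held TGACGTCA and FOSL2 held TGACTCA. Those of JUN, ATF3 and JUND matched the CRE-like element, and that of FOSL2 matched the AP-1 element. Among 35116 RefSeq start regions of the same length, 7.71% held TGANTCA and 7.72% held TGACNTCA. The share that held TGACATCA itself was not counted. No match was present in the windows of FOS, FOSB, JUNB or the other ATF3 start, which says only that these letters are not there. The sequences below run 5′ to 3′ on the gene's strand, with the matched element in capitals, and the 250 bases before the start are given for JUN (chr1:58784048-58784297, minus strand, element at position −67 from the start) and ATF3 (chr1:212565157-212565406, plus strand, element at −123). For JUND (chr19:18281804-18281833, minus strand, element at −200) and FOSL2 (chr2:28392851-28392879, plus strand, element at position 5 after the start) the surrounding bases only are shown.
JUN: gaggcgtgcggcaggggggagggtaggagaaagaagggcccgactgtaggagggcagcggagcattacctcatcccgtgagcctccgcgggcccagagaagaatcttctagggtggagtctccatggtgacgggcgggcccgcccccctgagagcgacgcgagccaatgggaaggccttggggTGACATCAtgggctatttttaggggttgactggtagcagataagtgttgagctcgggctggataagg
ATF3: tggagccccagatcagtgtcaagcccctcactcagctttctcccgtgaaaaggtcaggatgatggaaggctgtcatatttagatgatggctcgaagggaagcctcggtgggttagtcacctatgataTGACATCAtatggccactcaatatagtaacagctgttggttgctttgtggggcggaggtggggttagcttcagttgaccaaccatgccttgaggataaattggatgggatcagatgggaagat
JUND: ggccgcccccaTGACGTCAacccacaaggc
FOSL2: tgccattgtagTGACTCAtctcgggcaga

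All 8 members were detected in every library and all passed the filter on low counts. Levels between genes are compared per length, in RPKM (reads per kilobase of exon and per 1000000 counts), computed here from the counts and the merged exon length of each gene in GENCODE 29. JUND had the highest level in all 6 libraries, at 150.2 ± 38.2 RPKM (mean ± SD over 6 libraries), and 98.6% of the 15284 genes had a lower mean RPKM. FOSL1 (73.5 ± 36.0 RPKM) and JUNB (70.5 ± 20.2 RPKM) followed and did not differ beyond their spread. FOSL1 was above JUNB in the HCT116 libraries of KO1 and WT and below it in the other 4 libraries. JUN (12.6 ± 4.85 RPKM) and FOSL2 (11.3 ± 8.14 RPKM) came next and also did not differ beyond their spread. The same held for ATF3 (4.66 ± 1.46 RPKM) and FOS (3.29 ± 1.48 RPKM), though ATF3 was above FOS in every library but the HCT library of WT. These spreads include differences between groups and between sets. FOSB was lowest in every library, at 0.686 ± 0.192 RPKM and 31 to 86 reads. The ratio of JUND to FOSB within a library was between 127 and 372 in RPKM.

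The first comparison was of KO2 with WT. At an adjusted p of 0.05, 4 of the 8 members were called, against 4.61% of the 12678 genes tested. JUN and ATF3 rose, against 2.15% of all genes, and FOSL1 and FOSL2 fell, against 2.47%. The median log2 fold change was 0.01 over the members and 0.00 over all genes tested. The members were chosen with earlier results of these data known, so these shares are descriptions. In bulk RNA, fewer cells expressing a gene and less RNA per cell cannot be told apart.

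FOSL1, which encodes FRA1, a FOS family protein sustained by ERK signalling, stood at 123 and 54.0 CPM in the HCT116 and HCT libraries of KO2, against 236 and 89.6 CPM in WT. KO2 was lower within each set, although the HCT116 library of KO2 lay above the HCT library of WT. FOSL1 fell 1.79-fold in KO2 (log2 fold change −0.84 ± 0.13, SE over 2 libraries a group, edgeR adjusted p = 0.00374), with log2 ratios of −0.94 and −0.73 in the HCT116 and HCT sets. FOSL2, which encodes the related FRA2, stood at 25.1 and 50.4 CPM in KO2, against 37.7 and 111.6 CPM in WT. Again each KO2 library was below the WT library of its set, while the groups overlapped across sets. FOSL2 fell 1.85-fold (−0.89 ± 0.15, SE, edgeR adjusted p = 0.00762), with log2 ratios of −0.59 and −1.15. Leaving out the HCT library of WT ended the FOSL2 call (−0.63). The log2 fold change of FOSL1 was −0.98 to −0.69 with 1 library left out.

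JUN, the founding AP-1 protein and a target of the JNK kinases, moved the other way from FOSL1 and FOSL2 in KO2. It stood at 58.2 and 63.3 CPM in the HCT116 and HCT libraries of KO2, against 27.5 and 45.5 CPM in WT, and the groups did not overlap. FOSB and JUNB, which were not called, did not overlap either, and lack of overlap was not counted over all genes. JUN rose 1.72-fold (0.78 ± 0.18, SE over 2 libraries a group, edgeR adjusted p = 0.0313), with log2 ratios of 1.08 and 0.47. The call ended without the HCT116 library of WT (0.66, edgeR adjusted p = 0.164), and the log2 fold change was 0.45 without the HCT116 library of KO2 (edgeR adjusted p = 0.0294). ATF3 stood at 22.7 and 19.9 CPM in KO2, against 11.3 and 13.4 CPM in WT, again without overlap. ATF3 rose 1.73-fold (0.79 ± 0.20, SE, edgeR adjusted p = 0.0472), close to the threshold. Its call ended without either WT library (edgeR adjusted p = 0.128 and 0.224), without the HCT116 library of KO2 (0.51, edgeR adjusted p = 0.0671), without the HCT library of KO1 (edgeR adjusted p = 0.0569), with a filter of 50 reads in 2 libraries (edgeR adjusted p = 0.0502) and with mitochondrial transcripts left out (edgeR adjusted p = 0.0595).

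**Figure D1:**
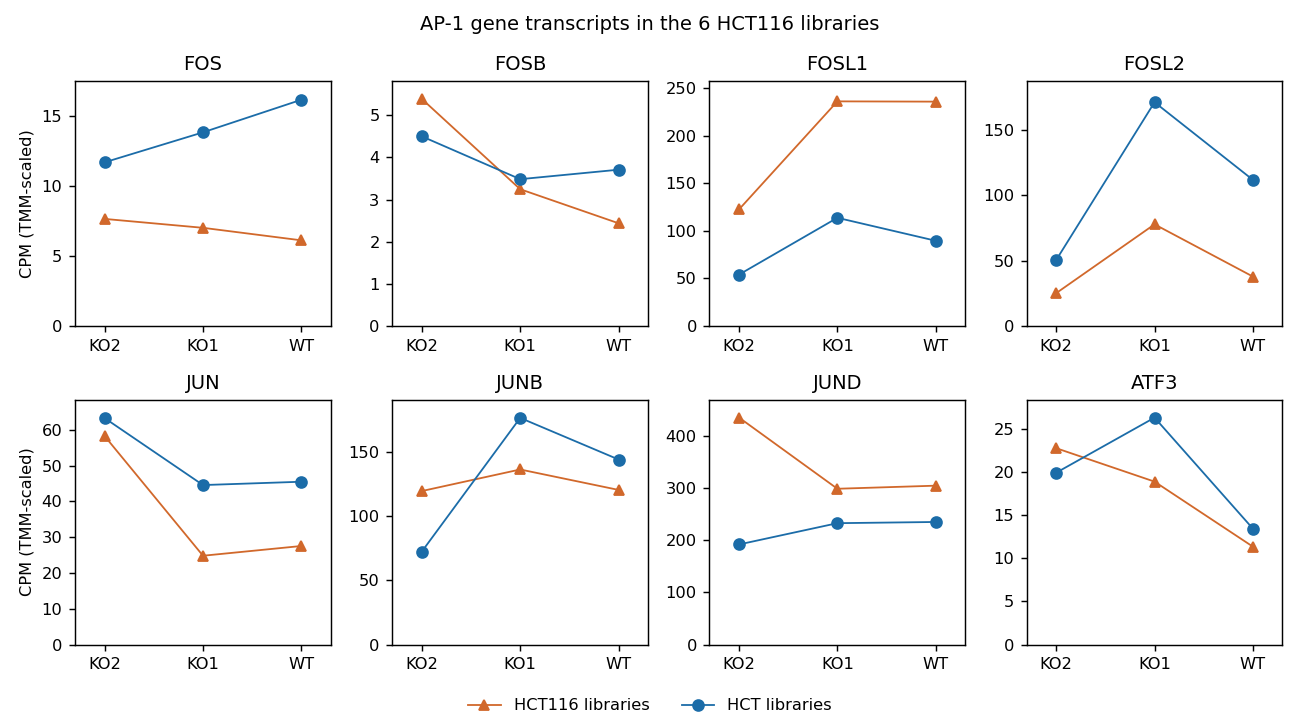
Transcript levels of the 8 AP-1 genes in CPM (linear axes from 0) in the 3 groups, 1 point per library, with lines joining the libraries of a set. FOSL1 and FOSL2 are lower and JUN is higher in KO2 than in WT within both sets, FOSL2 is higher in KO1, and ATF3 is higher with both guides.

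The other members did not pass the threshold in KO2, and some differed between the sets. JUNB, a JUN family protein that often restrains JUN, stood at 119 and 72.3 CPM in the HCT116 and HCT libraries of KO2, against 120.3 and 144 CPM in WT. The KO2 and WT libraries of the HCT116 set were within 1 CPM of each other, and the HCT library of KO2 was the lowest of all 6. JUNB had a log2 fold change of −0.47 ± 0.22 (SE, edgeR adjusted p = 0.260). Without the HCT116 library of KO2 it became −1.02, and without the HCT library of KO2 it became 0.02, each value resting on 1 KO2 library. In a fit of the KO2 and WT libraries alone JUNB did pass, at −0.52 with an edgeR adjusted p just under 0.05. Its exons overlap those of HOOK2 on the opposite strand in GENCODE 29, and strand use in counting is not given in the sources, so JUNB counts are uncertain. JUND stood at 435 and 192 CPM in KO2, against 305 and 235 CPM in WT, that is, higher in the HCT116 set and lower in the HCT set. Its log2 fold change was 0.13 ± 0.18 (SE, edgeR adjusted p = 0.755), 0.52 without the HCT library of KO2 (edgeR adjusted p = 0.000856) and −0.30 without the HCT116 library of KO2. FOSB had log2 ratios of 1.10 and 0.27 and a fitted value of 0.68 ± 0.32 (SE, edgeR adjusted p = 0.283) on 78 and 86 reads in KO2 and 31 and 57 reads in WT. FOS stood at 7.67 and 11.7 CPM in KO2, against 6.13 and 16.2 CPM in WT.

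For the other guide, KO1 was set against WT. FOSL2 was the 1 member called of 8 (12.5%), against 1.03% of all genes tested, and it rose, as did 0.678% of all genes. Among the members 0 fell, against 0.347% of all genes. The median log2 fold change was 0.15 over the members and 0.00 over all genes. FOSL2 stood at 77.6 and 170.9 CPM in the HCT116 and HCT libraries of KO1, against 37.7 and 111.6 CPM in WT. KO1 was higher within each set. FOSL2 rose 1.75-fold (0.81 ± 0.15, SE over 2 libraries a group, edgeR adjusted p = 0.0263), with log2 ratios of 1.04 and 0.61. The call ended without the HCT116 library of KO1 (0.73, edgeR adjusted p = 0.180), the HCT library of KO1 (0.89, edgeR adjusted p = 0.138) or the HCT116 library of WT (0.59, edgeR adjusted p = 0.341).

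ATF3 stood at 18.9 and 26.3 CPM in KO1, against 11.3 and 13.4 CPM in WT. The groups did not overlap, and its log2 fold change of 0.86 ± 0.20 (SE, edgeR adjusted p = 0.0807) was as large as in KO2 without passing the threshold. ATF3 did pass with DESeq2 (adjusted p = 0.0480), with no filter on low counts (edgeR adjusted p = 0.00918) and with the KO1 and WT libraries alone (edgeR adjusted p = 1.16e-05). It did not pass with RLE size factors (edgeR adjusted p = 0.0612), limma-voom (adjusted p = 0.0749) or a filter of 50 reads in 2 libraries (edgeR adjusted p = 0.0971). Nor did it pass with mitochondrial transcripts left out (edgeR adjusted p = 0.0925) or without the set term. With 1 library left out its log2 fold change was 0.61 to 1.07. FOSL1 stood at 236 and 114 CPM in KO1, against 236 and 89.6 CPM in WT (0.17 ± 0.13, SE, edgeR adjusted p = 0.817). JUN stood at 24.8 and 44.5 CPM in KO1, against 27.5 and 45.5 CPM in WT (−0.08 ± 0.18, SE, edgeR adjusted p = 0.961). JUNB, JUND, FOS and FOSB had log2 fold changes of 0.24, −0.02, −0.05 and 0.13, with edgeR adjusted p of 0.852 to 0.989.

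KO2 and KO1 were then compared directly, since both comparisons with WT use the same WT libraries. FOSL1, FOSL2 and JUN were called, 3 of 8 (37.5%), against 9.62% of all genes. The 1 higher member stands against 4.24% of all genes and the 2 lower ones against 5.39%. FOSL2 was 3.25-fold lower in KO2 than in KO1 (−1.70 ± 0.15, SE over 2 libraries a group, edgeR adjusted p = 5.74e-05), with log2 ratios of −1.63 and −1.76 in the HCT116 and HCT sets. KO2 and KO1 did not overlap for FOSL2 and JUN, nor for FOSB and JUNB, which were not called. Lack of overlap was not counted over all genes. FOSL1 was 2.02-fold lower in KO2 (−1.01 ± 0.13, SE, edgeR adjusted p = 0.000552) and JUN 1.82-fold higher (0.87 ± 0.18, SE, edgeR adjusted p = 0.0112). The JUN call ended without the HCT116 library of KO1 (0.65, edgeR adjusted p = 0.139). JUNB had a log2 fold change of −0.71 ± 0.22 (SE, edgeR adjusted p = 0.0625), which passed under RLE size factors (edgeR adjusted p = 0.0397), DESeq2 (adjusted p = 0.0157), limma-voom (adjusted p = 0.0383) and no filter on low counts (edgeR adjusted p = 0.00600). It rested on the HCT set, where the ratio was −1.29, against −0.19 in the HCT116 set. Of the 6 epithelial markers tested, 4 were lower in KO2 than in KO1 and 0 were higher. Of the 2 leukocyte markers tested, CD68 was lower in KO2 (−1.25, edgeR adjusted p = 0.0248). The leukocyte list summed to 12.8 and 6.45 CPM in KO2, against 19.5 and 22.8 CPM in KO1, without the scaling by library. PTPRC had 0 or 1 read. The part of these markers in the differences was not tested. ATF3 differed between the guides by −0.07 ± 0.19 (SE, edgeR adjusted p = 0.862).

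**Figure D2:**
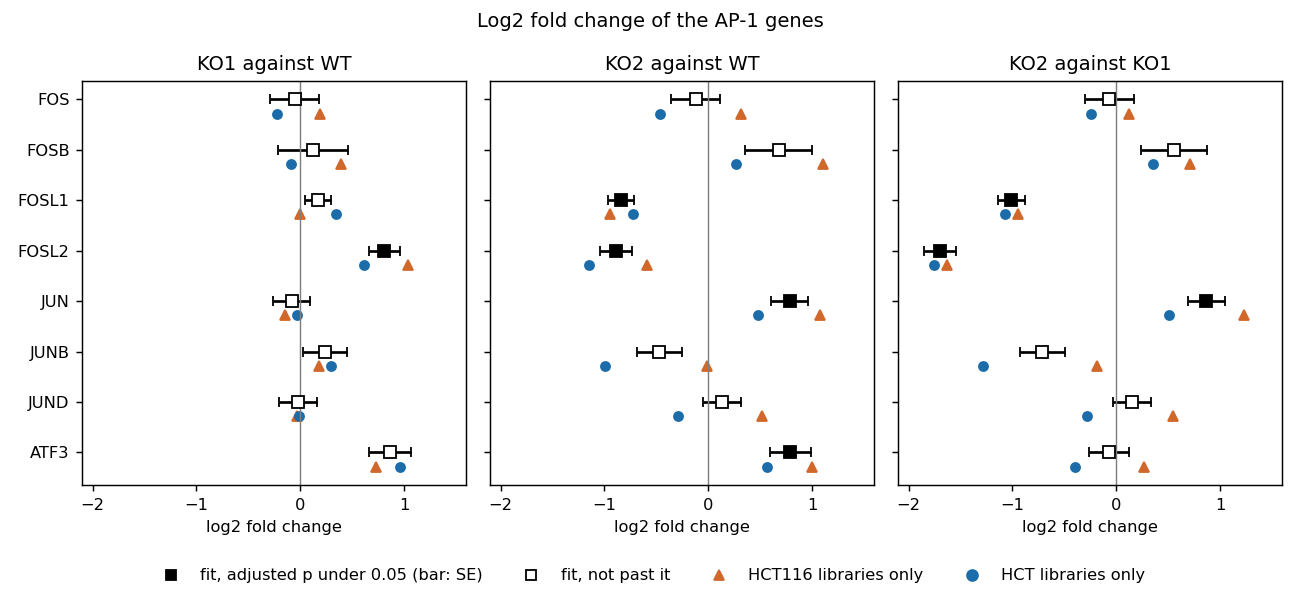
Log2 fold changes of the 8 genes in the 3 comparisons (squares with SE bars, filled where the edgeR adjusted p was under 0.05), with the log2 ratio within the HCT116 set (triangles) and the HCT set (circles) below each. The 2 ratios lie on the same side of 0 for every filled square, and JUND in KO2 against WT has them on opposite sides.

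All of these calls between groups depend on the set term. Without it, edgeR called 0 of 12678 genes in KO1 against WT, KO2 against WT and KO2 against KO1, with 173, 309 and 513 genes at an unadjusted p under 0.05. Among the members these were ATF3 in KO1 against WT, ATF3 in KO2 against WT and FOSL2 in KO2 against KO1. Each count of genes in the fit without the set term was below 0.05 of 12678, the share expected with no change. In that fit the log2 fold changes against WT were −0.88 ± 0.66 for FOSL1, −0.98 ± 0.68 for FOSL2, 0.73 ± 0.41 for JUN and 0.78 ± 0.31 for ATF3 in KO2, and 0.73 ± 0.68 for FOSL2 in KO1 (SE). Between KO2 and KO1 they were −0.99 ± 0.66 for FOSL1, −1.72 ± 0.69 for FOSL2 and 0.81 ± 0.41 for JUN (SE). In the authors' deposited table, log2 fold changes in KO2 against WT were −0.94 for FOSL1, −1.02 for FOSL2, 0.69 for JUN and 0.74 for ATF3. The authors' deposited table gave these 4 genes unadjusted p-values of 0.114, 0.0873, 0.154 and 0.136, and an adjusted p of 0.999996 each. For FOSL2 in KO1 against WT the authors' log2 fold change was 0.73, with their unadjusted p = 0.252 and adjusted p = 0.999994.

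The make-up of the AP-1 transcript pool was compared as shares of the summed RPKM of the 8 members. The FOS family made up 18.3% and 19.5% in the HCT116 and HCT libraries of KO2, against 35.6% and 23.7% in WT. It made up 36.0% and 27.0% in KO1. The KO2 libraries had the lowest FOS family shares of the 6 and the highest JUND shares, at 59.4% and 50.1%. In the HCT library of KO2, however, the JUND level itself was the lowest of the 6, at 110.4 RPKM. The share of FOSL1 was 16.5% and 13.9% in KO2, against 33.5% and 16.4% in WT. The share of JUN was 4.18% and 8.69% in KO2, against 2.09% and 4.43% in WT. The ratio of JUNB to JUN in RPKM was 3.99 and 2.22 in KO2 and 10.7 and 7.70 in KO1, against 8.503 and 6.16 in WT. The summed RPKM of the 8 members was 373 and 220.4 in KO2, against 348 and 311 in WT, so the total was higher in the HCT116 set and lower in the HCT set. No test was made on these shares.

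**Figure D3:**
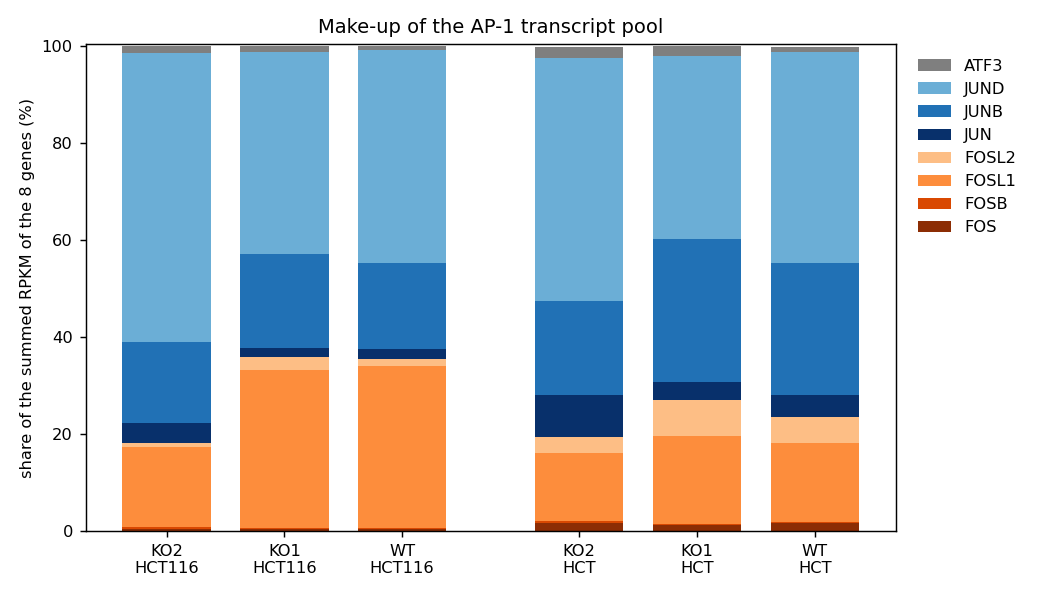
Share of each gene in the summed RPKM of the 8 AP-1 genes (percent), 1 bar per library, with the HCT116 set left and the HCT set right. FOS family genes (orange and brown) take 18.3% and 19.5% in the KO2 libraries and at least 23.7% in each KO1 and WT library.

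The HCT116 and HCT sets differed in 5 of the 8 members (62.5%), near the 63.9% of all genes tested, so the count is no result about AP-1. FOSL1 and JUND were higher in the HCT116 set, as were 31.8% of all genes, and FOS, FOSL2 and JUN were lower, as were 32.1%. FOSL1 averaged 198 ± 65.5 CPM in the HCT116 set and 85.8 ± 30.1 CPM in the HCT set (SD, n = 3 libraries each), a log2 difference of 1.21 ± 0.10 (SE, edgeR adjusted p = 6.60e-06). FOSL2 was the reverse, at 46.8 ± 27.4 CPM in the HCT116 set and 110.9 ± 60.2 CPM in the HCT set (SD), with a log2 difference of −1.24 ± 0.12 (SE, edgeR adjusted p = 1.24e-05). FOS was 1.99-fold lower and JUN 1.47-fold lower in the HCT116 set, and JUND 1.56-fold higher (edgeR adjusted p = 0.000938, 0.00645 and 0.00306). The JUN call ended without the HCT116 or the HCT library of KO1 (−0.39 and −0.41, edgeR adjusted p = 0.0772 and 0.0766). The log2 difference of JUND, 0.64, was 0.40 without the HCT116 library of KO2 and 0.37 without the HCT library of KO2, and passed in both. In RPKM the ratio of FOSL1 to FOSL2 was 11.5 to 23.7 in the HCT116 libraries and 2.53 to 4.07 in the HCT libraries. FOSL1, FOS and JUND did not overlap between the sets, while FOSL2 and JUN did, and lack of overlap was not counted over all genes.

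Other genes of the AP-1 pathway were counted over lists that were also chosen with earlier results known. Their counts stand beside 4.61% of all genes called in KO2 and 1.03% in KO1, and for the first 3 lists, with 1 gene called each in KO2, the shares were near that background. Of 27 upstream kinase genes tested, 0 changed in KO1 and 1 rose and 0 fell in KO2. The 1 was MAP3K5, which encodes ASK1, a kinase that activates JNK and p38 under stress, at 39.0 and 65.0 CPM in the HCT116 and HCT libraries of KO2, against 13.7 and 31.2 CPM in WT (1.27 ± 0.16, SE, edgeR adjusted p = 0.00144). Of 19 genes that control FOS and JUN transcription or turnover, 0 changed in KO1, and in KO2 ZFP36L2, an RNA-binding protein that promotes mRNA decay, rose 2.09-fold and 0 fell. Of 28 related basic leucine zipper genes, 0 changed in KO1, and in KO2 CREB5 rose and 0 fell. CREB5, a partner of JUN, had 44 and 210 reads in KO2, against 5 and 46 reads in WT (2.20 ± 0.39, SE, edgeR adjusted p = 0.00884). The median log2 fold changes of these 3 lists were 0.03, 0.08 and 0.05 in KO1 and −0.07, 0.02 and 0.00 in KO2.

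Among 33 tested immediate early genes outside AP-1, 0 changed in KO1, and 0 rose and 4 fell in KO2 (median −0.06), where 2.15% of all genes rose and 2.47% fell. KLF2, a Krüppel-like transcription factor, stood at 115 and 83.6 CPM in KO2, against 191 and 216 CPM in WT (−1.04 ± 0.16, SE, edgeR adjusted p = 0.00383). KLF4, a Krüppel-like factor of epithelial differentiation, fell 2.82-fold, with log2 ratios of −0.80 and −2.15 in the HCT116 and HCT sets. IER5L, an immediate early response gene, fell 1.56-fold. These 3 were in both sets lower in KO2 than in WT.

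Known AP-1 target genes moved in both directions. Of 37 tested, 3 rose and 3 fell in KO1, and 5 rose and 6 fell in KO2, with medians of 0.04 and 0.02. Over all genes 0.678% rose and 0.347% fell in KO1, and 2.15% rose and 2.47% fell in KO2. AREG, an EGF receptor ligand, fell with both guides, to 86.7 and 83.7 CPM in the HCT116 and HCT libraries of KO2 and 70.3 and 96.9 CPM in those of KO1, against 140.3 and 209 CPM in WT. The fall was 2.01-fold in KO2 and 2.08-fold in KO1 (edgeR adjusted p = 0.00407 and 0.00689), and these values share the WT libraries. EREG, another EGF receptor ligand, also fell with both guides, with log2 fold changes of −0.55 in KO2 and −1.0 in KO1 (edgeR adjusted p = 0.0245 and 0.00192). CCND1, the cell cycle regulator cyclin D1, fell in KO2 and rose in KO1, with log2 fold changes of −0.51 and 0.97 (edgeR adjusted p = 0.0446 and 0.00344). In KO2 PLAT, tissue plasminogen activator, had the smallest p of the list and rose 3.44-fold, at 54.1 and 75.2 CPM in KO2, against 16.2 and 21.3 CPM in WT (1.78 ± 0.15, SE, edgeR adjusted p = 0.000102). AXL, a receptor tyrosine kinase, fell 1.70-fold in KO2, at 57.05 and 44.1 CPM in KO2, against 101.0 and 72.0 CPM in WT.

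The genes whose pattern was most like that of a called member were found by Pearson's r over the 6 libraries of log2 CPM after subtraction of the set mean, among 11404 other genes. With so few libraries the names are a description only. Among the closest were INCENP and SOCS7 to FOSL1 (r = 0.999 each), SUSD2, MTURN and PRKAG2 to FOSL2, SGCE and TTLL7 to JUN, and PCTP, LRRC49 and PRPF39 to ATF3. SUSD2 had log2 ratios to WT of −0.72 and −1.48 in KO2 and 1.47 and 0.89 in KO1 in the HCT116 and HCT sets, next to −0.59 and −1.15 in KO2 and 1.04 and 0.61 in KO1 for FOSL2.

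**Figure D4:**
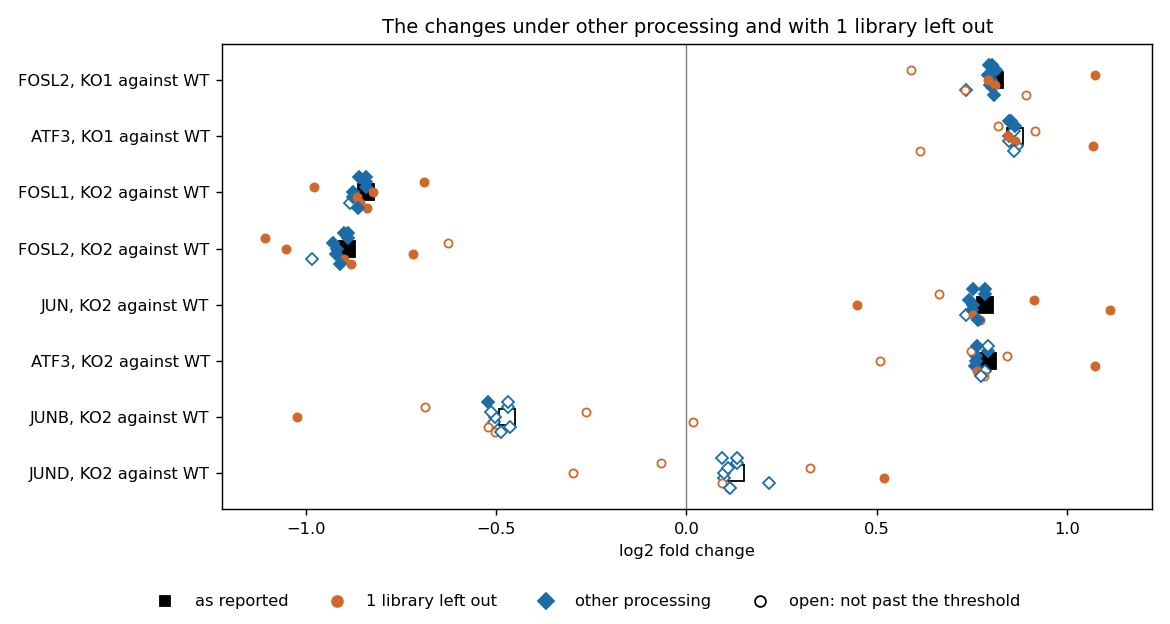
Log2 fold changes against WT of FOSL2 and ATF3 in KO1 and of 6 members in KO2, as reported (squares), with 1 library left out (circles) and under other processing (diamonds). Open symbols did not pass an adjusted p of 0.05. FOSL1, FOSL2, JUN and ATF3 keep their side of 0 throughout, while JUNB and JUND in KO2 reach or cross it.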

How the data were processed

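Poly(A) RNA was sequenced from 6 libraries. The authors deposited raw read counts per gene symbol and library, per the file headers. Log2 fold changes and p-values of the authors' own comparisons of each guide with WT were also deposited by the authors, per the file headers. The tools DESeq2, HTSeq 0.6.0 and STAR and the genome build hg18 are listed without a role, per the submitters' processing notes. Another 40 columns of per-library values were not used. WT counts were identical in the 2 tables, which were joined on gene symbol (264 and 429 genes were listed in 1 table only, with 0 reads in WT).

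Tests used edgeR 4.0.16 in R 4.3.3 on the counts of all 6 libraries: TMM normalization, filterByExpr (groups, count minimum 10), then glmQLFit and glmQLFTest with group and name prefix as terms (2 residual degrees of freedom), and Benjamini-Hochberg adjustment over 12678 genes at 0.05. Standard errors were obtained from each fold change and its F statistic. Log2 CPM used a prior count of 2. The prefix pairs libraries in the data: deviations from group means correlated over all genes for every pair of groups (KO2 and WT 0.815, KO1 and WT 0.867, KO2 and KO1 0.783), and the biological coefficient of variation was 0.118 with the block and 0.383 without it. Column names carry no replicate number. DESeq2 1.42.0, limma 3.58.1 (voom), RLE size factors, other filters, the libraries of 2 groups only and 1 library left out were alternatives. Scripts were tested on simulated counts.

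The members, gene lists, design and naming rule were chosen with earlier results of these data known. Besides the 8 members, the rule names up to 3 called genes with the smallest p per list and comparison with WT, and the 3 genes most like each called member (mean log2 CPM of at least 1). Some genes that the rule names are not reported here. GENCODE 29 gave overlapping genes and merged exon lengths (all 15284 symbols matched). No coordinates from it are printed. RPKM built on these lengths depends on an annotation that may differ from the one used for counting.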

Additional observations from a re-analysis of the deposited data

Results flagged for a closer look

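FOSL1, FOSL2 and JUN stood out because their changes with the guides differed when KO2 and KO1 were tested against each other in edgeR. The change in KO2 minus that in KO1 was −1.01 for FOSL1, −1.70 for FOSL2 and 0.87 for JUN on the log2 scale. FOSL2 is the member whose called changes had opposite directions, −0.89 in KO2 and 0.81 in KO1.

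For some members the log2 ratio to WT had opposite signs in the sets, a difference that was not tested and rests on 1 library pair per set. In KO2 these were JUND (0.52 in the HCT116 set and −0.29 in the HCT set) and FOS (0.32 and −0.46). In KO1 these were FOS (0.19 and −0.22) and FOSB (0.39 and −0.087).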

How the results depend on the processing

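Without the name prefix as a term, 0 members were called in KO1 against WT, KO2 against WT and KO2 against KO1, against 1, 4 and 3 with it. In KO1 against WT, 2 members (FOSL2 and ATF3) were called by DESeq2, with no filter on low counts and with the KO1 and WT libraries alone. With 1 library left out the count was 0 to 2 in KO1 against WT, 2 to 5 in KO2 against WT, 3 to 4 in KO2 against KO1 and 4 to 7 between the sets, where a single remaining library is taken to vary as the other groups do. In KO2 against WT it was 2 without either WT library. Leaving out mitochondrial transcripts, chosen after seeing the data, gave 1, 3, 3 and 5 members. Of the single log2 fold changes, 95 of 112 in KO1 against WT, 92 of 112 in KO2 against WT, 86 of 104 in KO2 against KO1 and 87 of 96 between the sets kept their direction and side of the threshold. Signs turned only with 1 library left out, where values ran as follows. In KO1 against WT they were −0.30 to 0.30 for FOS, −0.18 to 0.51 for FOSB, −0.32 to 0.10 for JUN, −0.086 to 0.51 for JUNB and −0.24 to 0.19 for JUND. In KO2 against WT they were −0.38 to 0.23 for FOS, −1.02 to 0.018 for JUNB and −0.30 to 0.52 for JUND. In KO2 against KO1 they were −0.31 to 0.24 for FOS, −0.26 to 0.54 for JUND and −0.34 to 0.21 for ATF3. Between the sets they were −0.34 to 0.10 for FOSB, −0.31 to 0.26 for JUNB and −0.37 to 0.012 for ATF3. The cause was not tested. FOSB had the fewest reads of the members, 31 to 86 per library.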
